A study of Mus musculus with 9 samples.

Results

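The genes described here encode the CCM complex with its receptor, and the MEKK3-ERK5 kinase cascade that the complex restrains. They are 7 genes (Heg1, Krit1, Ccm2, Pdcd10, Map3k3, Map2k5 and Mapk7), chosen by symbol for their place upstream of the MEF2 transcription factors, out of 30142 named genes on the array. Each of the 7 lies on a single transcript cluster, the array's unit for a transcript, so no choice between clusters was needed.

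In endothelial cells, the membrane protein HEG1 holds the adaptor KRIT1 (CCM1) at cell contacts, KRIT1 binds CCM2, and CCM2 binds PDCD10 (CCM3). CCM2 also binds the kinase MEKK3 (Map3k3) and limits its output. MEKK3 activates MEK5 (Map2k5), MEK5 activates ERK5 (Mapk7), and ERK5 phosphorylates MEF2 factors, which switch on Klf2 and Klf4, the transcription factors of endothelium under laminar flow. Loss of KRIT1, CCM2 or PDCD10 in endothelium causes cerebral cavernous malformations, clusters of dilated leaky vessels, with raised MEKK3, KLF2 and KLF4 activity.

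RNA came from the lining of the thoracic aorta of female mice, with 1 aorta per array. Control mice were Cdh5-CreERT2(-) littermates (4 arrays) and ACDiEKO mice Cdh5-CreERT2(+) (5 arrays). Both groups were homozygous for floxed Mef2a (Mef2a f/f), for floxed Mef2c (Mef2c f/f) and for floxed Mef2d (Mef2d f/f). Every mouse, control or not, received 5 daily tamoxifen injections at 10 weeks of age. Cdh5-CreERT2 drives recombination in endothelial cells, and since the controls lacked it, the effect of the recombinase cannot be told apart from that of losing the 3 factors. The harvest is given as 7 days from the start of tamoxifen in the series text and as 14 days in the sample protocols, and which holds is not settled. The lysis reagent was flushed through the vessel, so other cells of the wall can contribute RNA.

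The values are the authors' RMA values on a log2 scale, and they reach 19.34, beyond the 16 log2 units that a scanner spans, so differences are given in log2 units and not as folds. ACDiEKO replicates 1 and 2 were almost the same (robust SD of their difference over bright clusters 0.0707, against 0.268 to 0.401 in the other 15 array pairs within a group) and were counted as 1 averaged sample, which leaves 4 control and 4 ACDiEKO samples. The second control titled as replicate 3 is called replicate 4. Array medians were 6.17 to 6.23 in control and 6.13 to 6.15 in ACDiEKO. Endothelial markers were present in both groups: the summed level of 9 measured markers was 114.3 to 117.6 in control and 111.4 to 115.3 in ACDiEKO, with 1 marker higher, 2 lower and 6 not past the test. Of 10 measured smooth muscle markers, 9 were tested and 5 rose (summed level 82.0 to 92.4 against 95.3 to 104.3). Des lay below the filter value, and Myh11 and Cnn1 differed by -0.04 and -0.27 and did not pass. All 8 cell cycle markers rose (summed level 52.5 to 55.3 against 77.4 to 84.4). Top2a, Ccnb2, Prc1, Kif11, Cdk1 and Birc5 read in all controls inside the range of the array's antigenomic background probe sets (2.83 to 7.52). The full size of their rise is thus not measured. Control values of Lmod1, a smooth muscle marker that rose, also lay in that range. So did those of Kdr, the endothelial marker that rose, in control replicates 1, 2 and 4. Over all tested genes, 8.92% rose and 7.33% fell. Of 6 leukocyte markers, 5 were tested and 0 passed in limma (summed level 40.9 to 46.6 against 43.5 to 60.0; Cd3e lay below the filter value). The number of arrays limits the precision, and no label names a batch. Control replicates 3 and 4 carry animal numbers far from those of the other mice.

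None of the 7 genes passed the test between ACDiEKO and control, while Klf2 and Klf4, the genes that the cascade controls through MEF2, fell by 3.55 and 4.09 (limma, adjusted p = 0.00104 and 0.00152). Of the ACDiEKO samples, the averaged one and replicate 4 read Klf2 at 6.56 and 6.79, inside the range of the array's antigenomic background probe sets (2.83 to 7.52), so the Klf2 difference is that of the deposited values and its full size is not measured. Of the 7, 0 had an adjusted p under 0.05 in limma and 0 an exact permutation p under 0.05. Over all 16403 tested genes, 16.3% passed (8.92% rose and 7.33% fell). Control and ACDiEKO values overlapped in every one of the 7, and the groups did not overlap in 23.0% of all tested genes. With 4 and 4 samples the smallest exact permutation p is 0.0286, reached where the groups do not overlap. The exact test and the overlap are thus not separate readings. With only 7 genes, a count of 0 lies near these shares. The group mean was higher in ACDiEKO for 3 of the 7 and lower for 4, and the differences ran from -0.15 to 0.22 with a median of -0.02, beside a median of -0.03 over all tested genes. The 95% intervals of the 7 differences reached no further than -0.53 and 0.46. The comparison asks whether mice made to lose Mef2a, Mef2c and Mef2d differ in the transcripts of the pathway that lies upstream of these factors. In bulk RNA, fewer cells of a type and less RNA per cell cannot be told apart.

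**Figure D1:**
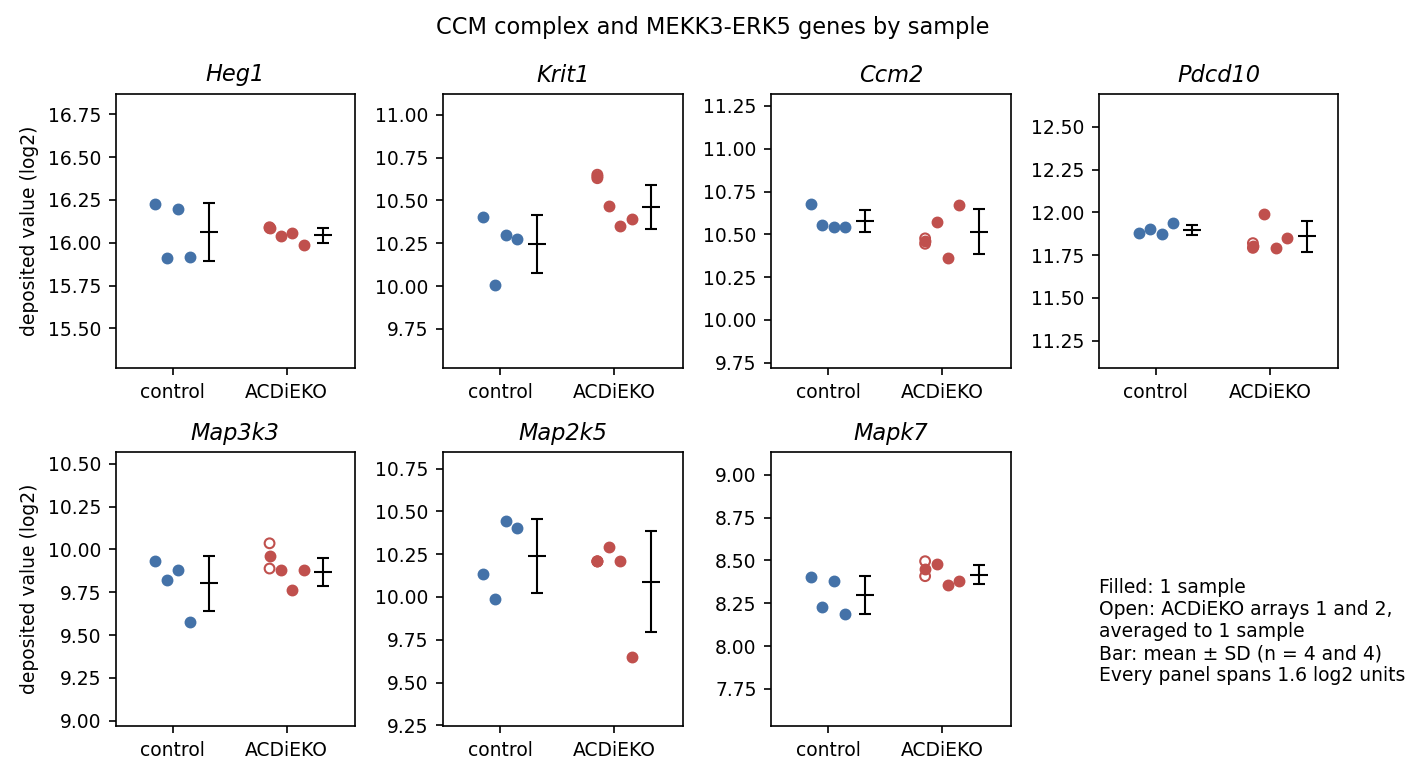
Deposited value (log2, vertical axis) of each of the 7 genes in control and ACDiEKO samples (filled points), with the mean ± SD of 4 and 4 samples beside them; open points are ACDiEKO arrays 1 and 2, which were averaged. Every panel spans the same height, and the groups overlap in all 7, with ACDiEKO replicate 5 low for Map2k5 at 9.65.

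Heg1, the transmembrane receptor that anchors the complex, measured 16.23, 15.91, 16.20 and 15.92 in control replicates 1 to 4. It measured 16.09 in the averaged ACDiEKO sample and 16.04, 16.06 and 15.99 in ACDiEKO replicates 3 to 5. Controls fell into 2 high and 2 low samples, and the ACDiEKO samples lay between them. The means were 16.06 ± 0.17 and 16.04 ± 0.04 (SD, n = 4 and 4), a difference of -0.02 (95% interval -0.23 to 0.19, limma adjusted p = 0.908, exact permutation p = 0.83). Of all tested genes, 93.1% had a larger absolute difference. Its sign turned under both other normalizations (0.04 after median centring and 0.01 after quantile normalization).

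Krit1, the adaptor that joins HEG1 to CCM2, had the largest difference of the 7. Its values were 10.40, 10.00, 10.30 and 10.28 in the controls, and 10.64, 10.47, 10.35 and 10.39 in the ACDiEKO samples in the same order. The lowest sample was control replicate 2 and the highest was the averaged ACDiEKO sample, and the groups met only at control replicate 1, which lay above ACDiEKO replicates 4 and 5. The means were 10.24 ± 0.17 and 10.46 ± 0.13, a difference of 0.22 (95% interval -0.02 to 0.46, limma adjusted p = 0.194, exact permutation p = 0.0857). Over 21 alternative settings the difference stayed positive, from 0.14 to 0.34, and the limma adjusted p ran from 0.0571 (quantile normalization) to 0.372. In all tested genes, 44.5% had a larger absolute difference.

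Ccm2, the scaffold between KRIT1, PDCD10 and MEKK3, measured 10.68, 10.55, 10.54 and 10.54 in the controls and 10.46, 10.57, 10.36 and 10.67 in the ACDiEKO samples. Control replicate 1 stood above the other controls, and ACDiEKO replicate 5 lay beside it. The means were 10.58 ± 0.07 and 10.52 ± 0.13, a difference of -0.06 (95% interval -0.25 to 0.13, limma adjusted p = 0.64, exact permutation p = 0.486), and 0.01 after quantile normalization.

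Pdcd10, the third CCM protein, which binds kinases of the MST family, measured 11.88, 11.90, 11.87 and 11.94 in the controls, the tightest group of any of the 7. It measured 11.81, 11.99, 11.79 and 11.85 in the ACDiEKO samples, and ACDiEKO replicate 3 was the only 1 of these above the controls' highest. The means were 11.90 ± 0.03 and 11.86 ± 0.09, a difference of -0.04 (95% interval -0.19 to 0.12, limma adjusted p = 0.732, exact permutation p = 0.486). That interval, 0.31 wide, was the narrowest of the 7. The sign turned after median centring (0.02) and quantile normalization (0.03).

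Map3k3 encodes MEKK3, the kinase at the head of the cascade. Its values were 9.93, 9.82, 9.88 and 9.57 in the controls and 9.96, 9.88, 9.76 and 9.88 in the ACDiEKO samples. Control replicate 4 was the lowest sample, and the other controls lay inside the ACDiEKO range. The means were 9.80 ± 0.16 and 9.87 ± 0.08, a difference of 0.07 (95% interval -0.15 to 0.28, limma adjusted p = 0.652, exact permutation p = 0.571). Without control replicate 4 the difference was -0.01 (limma adjusted p = 0.954).

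Map2k5 encodes MEK5, the kinase that activates ERK5. It measured 10.13, 9.99, 10.44 and 10.40 in the controls and 10.21, 10.29, 10.21 and 9.65 in the ACDiEKO samples. ACDiEKO replicate 5 lay below every other sample, and the remaining ACDiEKO samples lay inside the control range. The means were 10.24 ± 0.22 and 10.09 ± 0.30, a difference of -0.15 (95% interval -0.53 to 0.23, limma adjusted p = 0.564, exact permutation p = 0.486). The difference without ACDiEKO replicate 5 was -0.0049 (limma adjusted p = 0.984), so its size rests on that sample. Among the ACDiEKO samples, replicate 5 also had the highest mean of leukocyte markers (10.00, against 7.25 to 7.85 in the others). Its mean of cell cycle markers was the lowest (9.68, against 10.40 to 10.55). Its mean of mesothelial markers was the highest (8.37, against 6.19 to 8.10). So were those of fat (10.53, against 7.65 to 10.40) and fibroblast markers (9.14, against 8.23 to 9.04). The part of these markers in the Map2k5 value was not tested. Control replicates 3 and 4 were the highest for Map2k5, and without both the difference was 0.03.

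Mapk7 encodes ERK5, the kinase that acts on MEF2 proteins. Its values were 8.40, 8.23, 8.38 and 8.18 in the controls and 8.45, 8.48, 8.36 and 8.38 in the ACDiEKO samples. Controls 2 and 4 were low, and controls 1 and 3 lay within the ACDiEKO range. The means were 8.30 ± 0.11 and 8.42 ± 0.06, a difference of 0.12 (95% interval -0.05 to 0.29, limma adjusted p = 0.308, exact permutation p = 0.171). The difference stayed positive in all 20 alternatives that gave a value, from 0.08 to 0.18. Its lowest array value, 8.18, was the lowest of the 63 array values of these genes and lay above all values of the 23 antigenomic background probe sets (2.83 to 7.52), so all of the 7 were read above that background on every array.

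Of the 7, 4 held a value that recurred to the last digit in several arrays, such as 10.21 for Map2k5 in ACDiEKO replicates 1, 2 and 4 and 9.88 for Map3k3 in control replicate 3 and ACDiEKO replicates 3 and 5. Such repeats occurred in 61.3% of all named genes, and they came with the deposited values. Their part in the SDs of single genes was not tested.

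**Figure D2:**
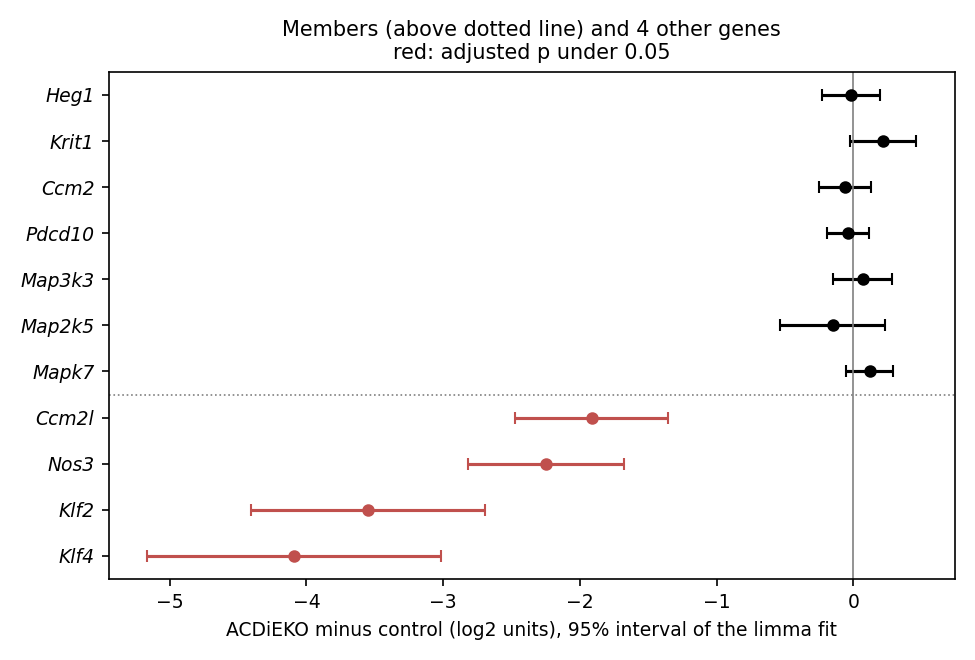
Difference between ACDiEKO and control (log2 units, horizontal axis) with the 95% interval of the limma fit, for the 7 genes above the dotted line and for Ccm2l, Nos3, Klf2 and Klf4 below it. All 7 intervals include 0 and end between -0.53 and 0.46, while those of the 4 other genes end at or below -1.36.

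Ccm2l, the endothelial paralog of CCM2 that also binds KRIT1, fell. It measured 13.11, 12.83, 13.11 and 13.04 in the controls and 10.56, 11.34, 10.79 and 11.74 in the ACDiEKO samples. Every ACDiEKO sample lay more than 1 log2 unit below every control. The means were 13.02 ± 0.13 and 11.11 ± 0.53, a difference of -1.91 (95% interval -2.47 to -1.36, limma adjusted p = 0.00227), and the call held in all 21 alternatives. Within each array, Ccm2l minus Ccm2 was 2.28 to 2.57 in the controls and 0.10 to 1.07 in ACDiEKO, a change of -1.85. The other pair was Map3k2, which encodes MEKK2, another activator of MEK5, against Map3k3: Map3k2 differed by 0.02 (95% interval -0.17 to 0.21, limma adjusted p = 0.881), and Map3k2 minus Map3k3 by -0.05. Both pairs and Map3k2 were chosen after their values were seen, so the within-array changes are a description, with no test.

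**Figure D3:**
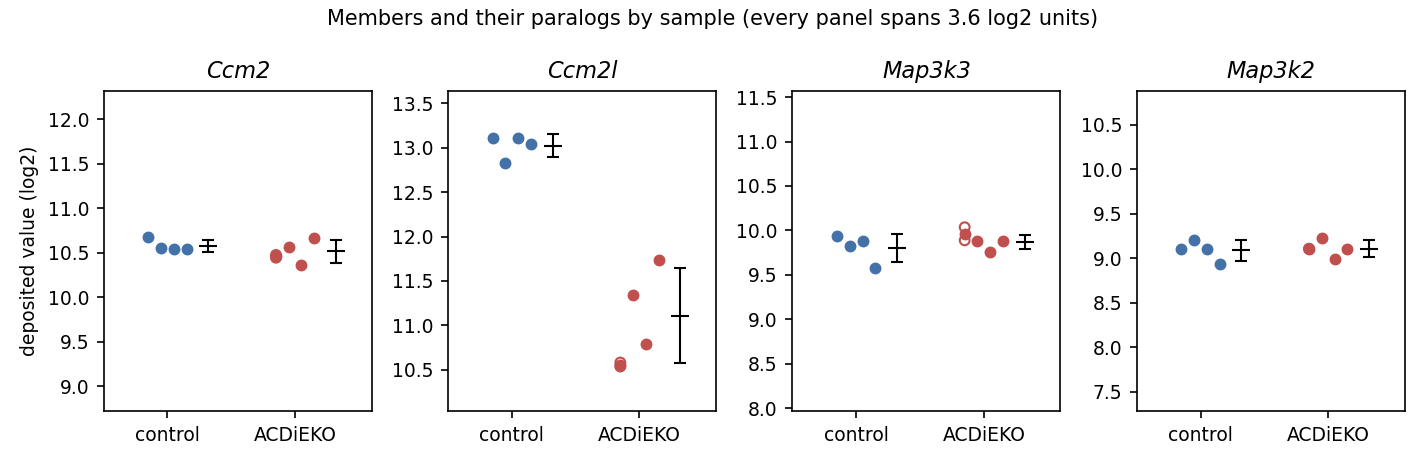
Deposited value (log2, vertical axis) of Ccm2 and Map3k3 and of their paralogs Ccm2l and Map3k2, by sample, with the mean ± SD of 4 control and 4 ACDiEKO samples; open points are ACDiEKO arrays 1 and 2, which were averaged. Panels span the same height: Ccm2l ran from 12.83 to 13.11 in control and from 10.56 to 11.74 in ACDiEKO, and the groups overlap in the other panels.

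Of 12 tested partners of the CCM complex (small GTPases, the kinases that bind PDCD10, striatins and others), 2 fell, 0 rose and 10 did not pass, with a median of -0.12; 16.3% of all genes passed. Besides Ccm2l, Stk24, the PDCD10-binding kinase MST3, fell from 10.24 ± 0.23 to 9.80 ± 0.12 (difference -0.45, limma adjusted p = 0.0453). Itgb1bp1, which encodes the KRIT1-binding protein ICAP1, differed by -0.30 (limma adjusted p = 0.0675). It passed without control replicate 2 (limma adjusted p = 0.04), with array weights (0.0472) and with all 9 arrays as samples (0.0328). The Stk24 call ended in 13 of 21 alternatives, among them those without control replicate 1 (limma adjusted p = 0.0921), control replicate 3 (0.103), control replicate 4 (0.0581), ACDiEKO replicate 3 (0.0785), ACDiEKO replicate 4 (0.105), ACDiEKO replicate 5 (0.0586) and both control replicates 3 and 4 (0.145).

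Among 12 tested kinases of the other MAPK cascades, 2 fell, 0 rose and 10 did not pass (median -0.01), so 16.7% passed against 16.3% of all genes. Map3k1, which encodes MEKK1 of the JNK branch, fell from 11.02 ± 0.33 to 10.20 ± 0.21 (difference -0.82, limma adjusted p = 0.0175). Mapk14, the p38 alpha kinase, fell from 10.79 ± 0.22 to 10.29 ± 0.15 (difference -0.51, limma adjusted p = 0.0312), and Mapk9, a JNK, differed by 0.13 (adjusted p = 0.267). In limma the Map3k1 call ended in 5 of 21 alternatives: without control replicate 4 (adjusted p = 0.0501), ACDiEKO replicate 4 (0.0544), both near-identical arrays (0.0516) or both control replicates 3 and 4 (0.0985), and with a term for the animal-number run (0.0807). That of Mapk14 ended in 9 of 21, among them those without control replicate 1 (0.06), control replicate 3 (0.078), ACDiEKO replicate 4 (0.0878), both near-identical arrays (0.0823) or both control replicates 3 and 4 (0.0946), and those with no filter (0.0619), median centring (0.0593), the run term (0.0753) or the replicate block (0.0727).

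MAPK phosphatases, which switch these kinases off, rose in 2 of 7 tested genes, fell in 0 and did not pass in 5 (median -0.03), where 8.92% of all genes rose. Dusp16, a phosphatase for JNK and p38, measured 10.39, 10.80, 10.82 and 10.67 in the controls and 11.88, 12.12, 11.51 and 11.77 in the ACDiEKO samples. All ACDiEKO samples lay above all controls, with a difference of 1.15 (limma adjusted p = 0.00237), and the call held in all 21 alternatives. Dusp10, with the same substrates, rose by 0.62 (limma adjusted p = 0.0123; 0.0622 without both control replicates 3 and 4, and 0.0504 with the replicate number as a block). Dusp6, the ERK phosphatase, differed by -0.47 (limma adjusted p = 0.102).

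Of 8 tested scaffolds, chaperones and activators of MEK5 and ERK5, 1 rose, 1 fell and 6 did not pass (median 0.08), so 25.0% passed against 16.3% of all genes. Hsp90aa1, a chaperone that holds inactive ERK5 with CDC37, rose from 13.64 ± 0.07 to 14.30 ± 0.18 (difference 0.66, limma adjusted p = 0.00428), in all 21 alternatives. Gab1, a docking protein in ERK5 activation by flow, fell from 9.43 ± 0.15 to 9.04 ± 0.09 (difference -0.39, limma adjusted p = 0.025). Prkci, an atypical protein kinase C, differed by 0.48 (limma adjusted p = 0.0714). It passed after median centring (limma adjusted p = 0.0447) and with all 9 arrays as samples (0.041). The Gab1 call in limma ended in 9 of 21 alternatives, among them those without control replicate 1 (adjusted p = 0.0602), control replicate 3 (0.0568), ACDiEKO replicate 3 (0.0544), ACDiEKO replicate 4 (0.071), ACDiEKO replicate 5 (0.0501) and both control replicates 3 and 4 (0.0803). The cell cycle markers rose with Hsp90aa1, and their part in its rise was not tested.

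In endothelium that lacks CCM proteins, Klf2, Klf4, Nos3, Thbd, Procr, Bmp6 and several Adamts genes are reported to rise and Thbs1 to fall. Of 14 tested genes on such a list, 3 rose, 3 fell and 8 did not pass here (median -0.07), so 42.9% passed against 16.3% of all genes. The list was chosen with earlier results of these data known and holds Klf2 and Klf4, so the 42.9% is a description. Klf2 ran from 10.53 to 11.31 in the controls and from 6.56 to 8.13 in the ACDiEKO samples, and Klf4 from 12.54 to 12.77 and from 7.54 to 9.86. Neither overlapped between groups. Nos3, the endothelial nitric oxide synthase, fell by 2.25 (limma adjusted p = 0.00133). Thbs1, the secreted angiogenesis inhibitor thrombospondin 1, rose from 15.86 ± 1.07 to 18.22 ± 0.25, a difference of 2.36 (limma adjusted p = 0.0136), and by 1.51 without both control replicates 3 and 4 (limma adjusted p = 0.0294). Bmp6, a ligand of the BMP pathway, rose by 0.79 (limma adjusted p = 0.014; 0.0734 without both of those controls). The other rise was Adamts9, a metalloproteinase at a level inside the range of the background probe sets (6.18 and 6.51 in control and ACDiEKO). It rose by 0.32 (limma adjusted p = 0.047) and was named after its value was seen. Control replicates 1, 3 and 4 read it below the filter value (6.13, 6.12 and 6.14) and all ACDiEKO arrays above it. Its place among the 3 that rose thus rests on a filter passed mainly through the ACDiEKO arrays. In limma the call ended in 10 of 20 alternatives, among them that with no filter on dim genes (adjusted p = 0.0683). It also ended without control replicate 1 (0.0997), 3 (0.102) or 4 (0.106), and without ACDiEKO replicate 3 (0.101), 4 (0.116) or 5 (0.064). Without both control replicates 3 and 4 the adjusted p was 0.228. Of the other genes on the list, Adamts1 differed by -1.76 (limma adjusted p = 0.0648) and Adamts5 by -0.75 (0.0885), and Adamts4 was not tested. Thbd differed by -0.07 (limma adjusted p = 0.613) and Procr by 0.54 (0.0807). None of these passed, and they were named after their values were seen. Some smooth muscle markers rose, as given above, and their part in the values of this list was not tested.

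RhoA and ROCK genes, which act on contractility when the CCM complex is lost, fell in 1 of 7 tested genes and rose in 0, with 6 not past the test (median 0.20), where 7.33% of all genes fell. Limk2, a kinase that acts on cofilin, fell by 0.35 (limma adjusted p = 0.0183; 0.109 without both control replicates 3 and 4, 0.0871 with the run term, and 0.05 after median centring). Rock1 differed by -0.28 (limma adjusted p = 0.0736, and 0.0362 with all 9 arrays as samples). Mylk, the myosin light chain kinase, differed by 0.43 (limma adjusted p = 0.114). The 3 floxed genes themselves did not pass: Mef2a differed by 0.12, Mef2c by 0.06 and Mef2d by 0.23 (limma adjusted p = 0.441, 0.66 and 0.111; for Mef2d 0.0366 after quantile normalization). Each value covers a whole transcript cluster and the deleted exons were not read separately, so these values do not check the genotypes.

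**Figure D4:**
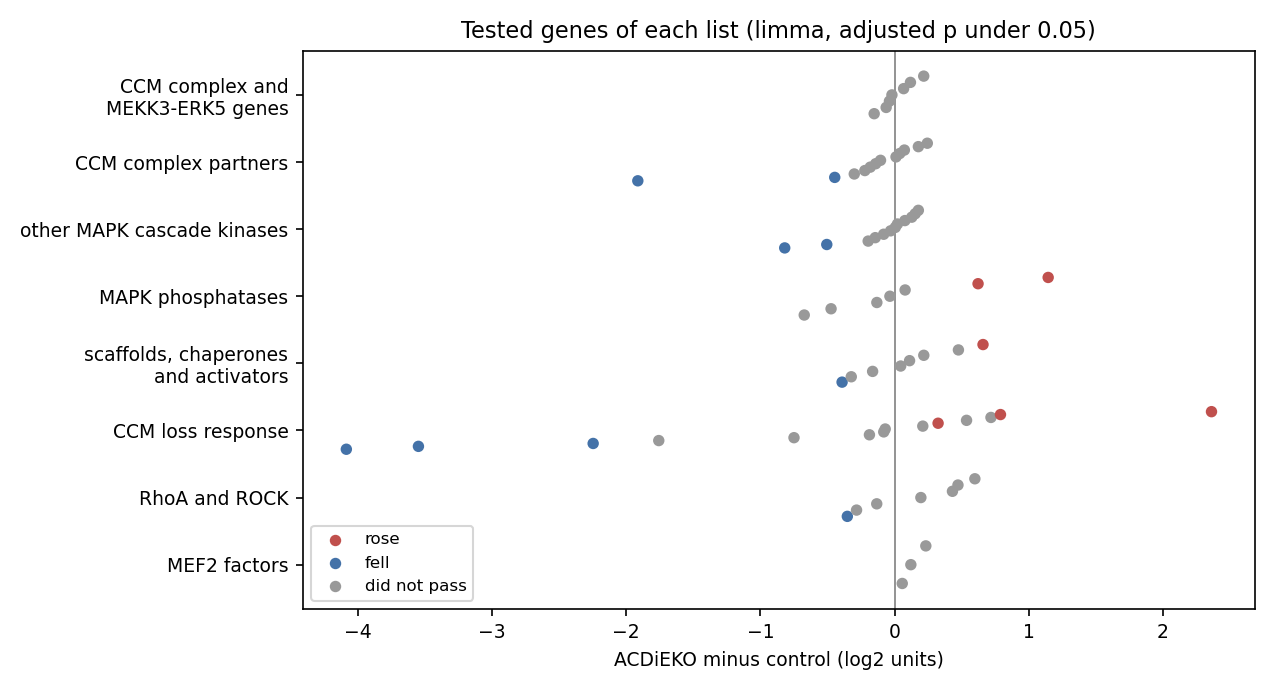
Difference between ACDiEKO and control (log2 units, horizontal axis) for each tested gene of the 7-gene group and of the 7 lists around it; red genes rose, blue genes fell and grey genes did not pass limma. Genes of the top row lie between -0.15 and 0.22, and Ccm2l stands at -1.91 among the partners.

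The promoters of the 7 genes were read for the motif that MEF2 proteins bind, because the mice were made to lose these proteins. RefSeq promoter windows (GRCm38.p6, 250 bases before to 50 after each start) were matched for all 7, 10 windows in all. The MEF2 consensus was found on either strand in 0 of the 10 windows, against 3.19% of all 32851 windows. The windows of Mapk7 overlap each other, as do those of Krit1, and with so few windows a count of 0 lies near that share. Windows were also looked up for some of the changed genes named above. Klf2 and Dusp16 held the consensus and Klf4, Map3k1, Mapk14 and Dusp10 did not. No window was matched for Ccm2l, Stk24 and Nos3. Hsp90aa1, Gab1, Thbs1, Bmp6, Limk2 and Adamts9 were not looked up. The KLF motif CACCC (both strands) occurred in 3 of the 7 genes (Mapk7, Ccm2 and Heg1) and in 59.8% of all genes with a window. The SRF motif CArG occurred in 0 of the 7 genes and in 1.81% of all genes with a window, and with 7 genes a count of 0 lies near that share. GC content was 39.0% to 74.0% against a median of 52.7% over all windows, and 9 of the 10 windows had more CpG for their base composition than the median window. The windows of Klf2, which fell, and of Mapk7 and Heg1, which did not pass, are shown as examples: Klf2 for its MEF2 match, and Mapk7 and Heg1 for their several CACCC matches (Ccm2 holds fewer and is not shown). Capitals mark the MEF2 consensus in Klf2 (CTAAATTTAG, 118 to 109 bases before the start) and CACCC or its reverse complement in all 3.
Klf2 promoter, chr8:72318812-72319061, plus strand: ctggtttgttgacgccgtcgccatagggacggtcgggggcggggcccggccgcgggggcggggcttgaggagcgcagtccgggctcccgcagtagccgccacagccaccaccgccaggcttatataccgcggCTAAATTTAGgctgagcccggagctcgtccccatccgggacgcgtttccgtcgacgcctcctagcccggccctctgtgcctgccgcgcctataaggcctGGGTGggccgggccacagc
Mapk7 promoter, chr11:61494267-61494516, minus strand: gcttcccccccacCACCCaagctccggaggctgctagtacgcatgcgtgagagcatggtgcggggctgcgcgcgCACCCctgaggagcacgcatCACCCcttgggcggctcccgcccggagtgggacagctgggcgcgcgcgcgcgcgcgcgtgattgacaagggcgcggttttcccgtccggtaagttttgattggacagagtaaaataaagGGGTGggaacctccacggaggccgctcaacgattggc
Heg1 promoter, chr16:33684216-33684465, plus strand: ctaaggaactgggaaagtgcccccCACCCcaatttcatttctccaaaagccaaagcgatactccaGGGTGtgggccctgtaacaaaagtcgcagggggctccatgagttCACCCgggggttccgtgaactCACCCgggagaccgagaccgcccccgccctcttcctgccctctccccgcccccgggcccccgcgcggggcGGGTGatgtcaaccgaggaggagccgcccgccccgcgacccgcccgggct
A further MEF2 match, chosen after the values were seen, lay in Dusp16, which rose, 57 to 48 bases before its start (GRCm38.p6, chr6:134792656-134792705, minus strand), with the motif in capitals.
Dusp16 site: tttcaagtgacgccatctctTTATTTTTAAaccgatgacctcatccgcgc
A match describes letters in these windows and does not show binding, and distal sites were not read.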

How the data were processed

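RNA from the lining of single thoracic aortas was measured on whole-transcriptome arrays, 4 control and 5 ACDiEKO. Per the labels, 5 ng of each RNA was labelled. On a log2 scale, the authors deposited RMA output, per the submitters' processing notes; the version and build are not given in the sources used here, nor is a further scaling step.

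The members and lists were chosen with earlier results of these data known. Of 72688 features, 6732 controls were left out. Of the clusters naming a single gene (30604), the brightest stood for each symbol, with 827 symbols updated through gene IDs. Genes with at least 4 arrays above the median of all values (6.165) were tested. ACDiEKO replicates 1 and 2 were averaged. ACDiEKO minus control was fitted with limma 3.58.1 in R 4.3.3, two-sided, Benjamini-Hochberg threshold 0.05 over 16403 genes; single genes were also read with exact permutation tests (scipy 1.17.1). The named genes are the 7, Klf2, Klf4 and, from each list, the 3 tested genes with the smallest p, or up to 5 where more passed. Some genes of the lists are not reported here. On simulated data with 200 changed genes of 16403, limma recovered 75.6% of changes of 1 log2 unit and 96.8% of 2, with 7.12% false calls. Changes as small as the differences of the 7 (-0.15 to 0.22) were not simulated, and far more genes passed in the data (2666). The labels do not say how RNA was handled between aortas, so p-values measure the spread between these samples.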

Additional observations from a re-analysis of the deposited data

Results flagged for a closer look

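In 32 of the genes named above, both groups were checked for a sample that stands apart from the rest of its group. There were 64 checks, of which chance gives about 1 in 20, and in 3 a sample did so. Map2k5 in ACDiEKO replicate 5 was 9.65, against 10.21 to 10.29 in the others, and its gap was 0.868 of the group's range. Ccm2 in control replicate 1 was 10.68, against 10.54 to 10.55 in the other controls (0.919 of the range). Adamts9 in control replicate 2 was 6.34, against 6.12 to 6.14 (0.933 of the range).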

How the results depend on the processing

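In limma, 0 of the 7 genes passed under any of 21 alternatives: no filter or a stricter filter (75th percentile, 8.417) on dim genes, 2 further normalizations (median centring and quantile), averaging over a gene's clusters, array weights, a trended robust variance, all 9 arrays as samples, no near-identical arrays, control replicates 3 and 4 left out together or their run of animal numbers as a term, the title numbers as a block, and each replicate left out. Mapk7 gave no value under the stricter filter. Signs of differences near 0 turned: Pdcd10 to 0.023 and Heg1 to 0.042 with median centring; Ccm2 to 0.010, Pdcd10 to 0.035 and Heg1 to 0.0092 with quantile normalization; Map3k3 to -0.0083 and Map2k5 to 0.029 without both control replicates 3 and 4 and with the run as a term. With a replicate block, Map2k5 turned to 0.037 and Heg1 to 0.0054; the numbers do not pair the arrays (correlations of deviations -0.0049, -0.145, 0.0353 and 0.0413). Leaving out replicates gave Heg1 -0.070 to 0.035, Map3k3 -0.0083 to 0.111, Map2k5 -0.24 to -0.0049, Krit1 0.14 to 0.27 and a count of passing genes from 1680 (without ACDiEKO replicate 4) to 2701. That count was 1127 without both control replicates 3 and 4, 1692 with the run as a term and 2351 with the replicate block, against 2666. Among the others of the 32 genes checked above, 7 values gained a call, 52 lost it and 4 turned sign. All 4 were of Map3k2 (-0.047 without both control replicates 3 and 4 and with the run as a term, and -0.030 to 0.061 on leaving out replicates). The filter value, 6.165, lies within the range of the background probe sets (2.83 to 7.52), which limits what can be read of dim genes.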
